A study of Drosophila melanogaster with 4 samples.

Results

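Dll-GFP chromatin immunoprecipitation peaks were described at 7 genes of the embryonic trachea and salivary gland: trh, btl, bnl and rib of the tracheal system, and fkh, sage and CrebA of the salivary gland. A peak was assigned to a gene when its summit, the position of highest signal, had its nearest protein-coding transcription start site (TSS) there, or lay in the gene body or the 2000 bp upstream. The 7 genes are among 13968 protein-coding genes, and they held 4 of the 5203 nuclear summits of the list that the submitters call conservative. All 4 samples were whole Drosophila melanogaster embryos aged 0 to 24 h of the strain Dll-GFP, which carries an eGFP fusion of Distal-less (Dll), precipitated with an antibody to GFP and sonicated to 200 to 800 bp. They are 4 biological replicates of 1 group, so there is no contrast between conditions and no test, and the files hold peak lists without read counts, so the depth is unknown. In whole embryos, binding in few cells and weak binding in many cells cannot be told apart, and peak lists give no expression by which the tissue could be checked.

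Each replicate had 2 lists of its own. The ranked list holds all candidate peaks, 39011 to 44390 per replicate, and covers 12.1 to 14.1% of the genome. The thresholded list, called the own list here, holds the 2523 to 3610 candidates with a scaled score of at least 830, which is a global irreproducible discovery rate (IDR) of 0.01. The conservative list derives from all 4 replicates. Position in a list is given as percent from the top by signal, so that a low percent is a strong peak, and signal was not compared between lists.

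The tracheal system forms from ectodermal placodes that invaginate and then branch. Trachealess (trh) is a bHLH-PAS factor that starts the tracheal programme and also acts in the salivary duct, breathless (btl) is the FGF receptor of tracheal cells, branchless (bnl) is its FGF ligand, and ribbon (rib) is a BTB-domain nuclear protein needed for tube growth. In the salivary gland, Fork head (fkh) is a FoxA factor that maintains gland fate, Sage is a bHLH factor of the gland, and CrebA is a bZIP factor that raises secretory pathway genes. Dll itself is a homeodomain factor best known for the distal parts of limbs.

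Of the 7 genes, trh and bnl held a conservative summit, which is 2 of 7 beside 40.0% of all protein-coding genes. The count was also 2 by nearest TSS alone, beside 27.7%, and 2 by body or 2000 bp upstream alone, beside 39.1%. In the own lists of replicates 1 to 4, 2, 2, 1 and 3 of the genes held a summit, beside 32.1, 33.1, 25.3 and 27.8% of all genes. Counted as summits, these were 2, 4, 1 and 3 (2.5 ± 1.29, SD, n = 4). Only trh held one in all 4 own lists, beside 21.9% of all genes by the same rule and 11.7% by nearest TSS. As a count, the genes therefore lay close to the background, and the rest of the account concerns where their peaks lay.

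The strongest peak at any of these genes lay inside trh (3L:366524-392633, minus strand). It spanned 3L:390199-390534 in the conservative list, in an intron, with its summit 2237 bp downstream of the distal TSS. It ranked 1229 of 5203, at 23.6% from the top. In the ranked lists of replicates 1 to 4 it stood at 2.68, 3.55, 2.50 and 2.76% (2.88 ± 0.464, SD, n = 4), with a global IDR between 0.000135 and 0.000249. The 4 replicates placed its summit within 26 bp of one another, and every own list held it, at 31.6 to 42.8%. Among the 530 conservative summits in introns of protein-coding genes, 23 ranked at or above it, itself included, and all 23 overlapped a peak in all 4 own lists, as 106 of the 530 did. Of all genes, 14.4% had a strongest candidate with a mean rank as strong. The stretch inside the peak of every own list is shown because it is where the 4 replicates coincide (RefSeq release 6, dm6, plus strand, 220 bases), and the second, weaker trh peak is shown with it for comparison, as 100 bp on each side of its summit. Capitals mark matches, on either strand, to the motifs searched.
trh stronger peak, 3L:390267-390486: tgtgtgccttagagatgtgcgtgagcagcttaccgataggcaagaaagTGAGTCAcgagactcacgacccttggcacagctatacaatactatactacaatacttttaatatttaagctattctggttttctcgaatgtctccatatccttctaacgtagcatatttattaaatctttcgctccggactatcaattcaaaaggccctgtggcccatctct
trh second peak, 3L:378154-378354: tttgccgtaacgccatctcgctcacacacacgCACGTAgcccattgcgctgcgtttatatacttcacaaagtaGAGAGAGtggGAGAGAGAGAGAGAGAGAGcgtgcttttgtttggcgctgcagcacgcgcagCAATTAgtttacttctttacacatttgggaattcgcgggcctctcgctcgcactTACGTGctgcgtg

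The first stretch held no match to any of the 9 planned motifs. Its capitals mark TGAGTCA, the letters bound by AP-1 factors, which was added to the search only after this sequence had been read, so its presence is a description chosen from these data. TGAGTCA lay outside the planned window of 50 bp around the conservative summit, where 0.711% of all conservative summits hold it, and inside the window of 100 bp, where 78 of the 5203 do. Windows around the replicates' own summits were tried after that miss: TGAGTCA lay within 50 bp in replicates 1, 2 and 4 and not in replicate 3, and 0.872 to 0.942% of own-list summits hold it. The planned motifs included TATCGATA of the factor DREF, CGATAT of the insulator protein BEAF-32, GGTCACAC of the promoter factor M1BP and GAGAGAG of GAGA factor. For the members' own factors they were TACGTG for Trachealess with its partner Tango, TGTTTAC for Fork head, and CACGTGG for CrebA. For homeodomain proteins such as Dll they were TAATTA, and as a second form of the core TAATTG. A match says only that the letters are there.

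The second trh peak, 3L:377956-378551, lay 938 bp upstream of the internal TSS, from which 5 of the 7 annotated transcripts start. It stood at 62.0% in the conservative list and was in the own list of replicate 2 only. Its candidates ranked at 8.36, 6.69, 9.28 and 14.4% in replicates 1 to 4 (9.67 ± 3.31, SD, n = 4), with global IDR values of 0.0265, 0.00131, 0.185 and 0.645. Replicate 2 was thus the strongest and replicate 4 the weakest, with no overlap between any of these values and those of the stronger peak. Within 50 bp of its summit it held GAGAGAG, in overlapping copies, and TAATTG, which 3.92% and 9.13% of all conservative summits hold. Within 100 bp it also held TACGTG, as 4.79% of summits do. The matches depended on the summit used: within 50 bp of the own-list summit of replicate 2, GAGAGAG and TACGTG were found and TAATTG was not.

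**Figure D1:**
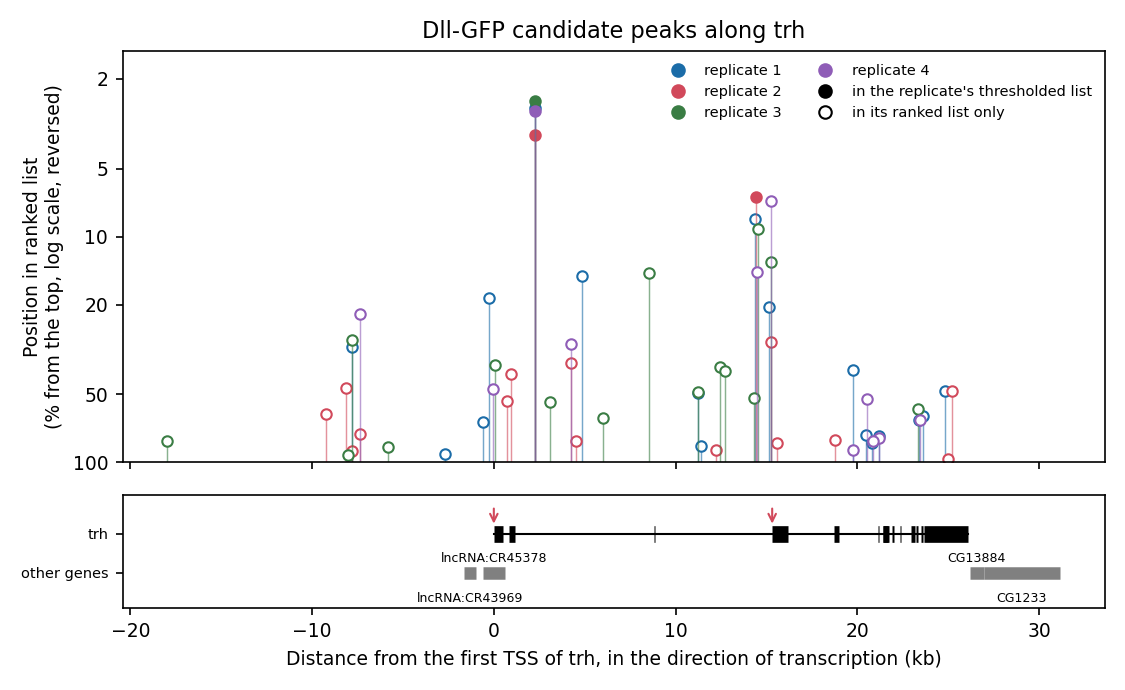
Candidate peaks along trh by distance from its first TSS (kb, x axis) and percent from the top of each replicate's ranked list (log scale, reversed, y axis), with colours for replicates, filled points for candidates in the own list, black boxes for exons and arrows for TSSs. The 4 replicates coincide at the stronger peak, at 2.50 to 3.55%, and spread from 6.69 to 14.4% at the second.

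At trh, 17, 16, 16 and 11 candidates were found in the ranked lists of replicates 1 to 4. Regions with a candidate in all 4 replicates numbered 4. Beside the 2 peaks above, 1 lay at the internal promoter, 92 bp upstream of its TSS, at 20.4, 29.1, 13.0 and 6.94%, and 1 was intergenic, 7807 bp upstream of the distal TSS, at 22.0 to 47.0%. By the fixed measure, the mean absolute difference in percent rank over the 4 replicates, the genes with the pattern most like that of trh were Cap-D3, Elp4 and Vps52 on 2L. They own the same promoter candidate and so share 1 set of values, 0.0924 percentage points from trh on average.

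The FGF ligand gene bnl (3R:19794073-19836817, minus strand, 42745 bp) held the other 2 conservative summits. At its promoter, 3R:19836680-19837275, the summit lay 161 bp upstream of the TSS and ranked at 67.9%. Its candidates stood at 7.34, 9.56, 9.83 and 9.57% in replicates 1 to 4 (9.08 ± 1.17, SD, n = 4), with global IDR values of 0.00574, 0.0426, 0.0467 and 0.00885. Replicates 1 and 4 therefore passed into the own lists and replicates 2 and 3 did not, although 3 of the 4 ranks differ by less than 1 percentage point. The other summit, in 3R:19802371-19802966, lay in an intron 34148 bp downstream of the bnl TSS, and 21 bp from tRNA:Thr-AGT-1-7, a threonine transfer RNA gene (3R:19802690-19802763, plus strand). The nearest protein-coding TSS was that of Acsx4, 19147 bp away. This peak ranked at 74.2% and no replicate's thresholded list included it. Its candidates in replicates 1 to 4 stood at 10.9, 11.3, 25.3 and 15.7% (15.8 ± 6.70, SD, n = 4). Their global IDR values were 0.569, 0.0192, 0.718 and 0.0302, and the summit of replicate 3 lay 190 bp from the conservative one. The promoter and intron peaks are both shown as 100 bp on each side of the conservative summit (RefSeq release 6, dm6, plus strand). Capitals mark GAGAGAG matches in the first and the transfer RNA gene in the second.
bnl promoter, 3R:19836878-19837078: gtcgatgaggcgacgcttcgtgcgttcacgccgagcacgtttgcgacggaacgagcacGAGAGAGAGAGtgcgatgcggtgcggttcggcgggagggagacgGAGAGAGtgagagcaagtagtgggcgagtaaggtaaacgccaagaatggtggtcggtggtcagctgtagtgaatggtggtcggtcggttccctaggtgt
bnl intron, 3R:19802569-19802769: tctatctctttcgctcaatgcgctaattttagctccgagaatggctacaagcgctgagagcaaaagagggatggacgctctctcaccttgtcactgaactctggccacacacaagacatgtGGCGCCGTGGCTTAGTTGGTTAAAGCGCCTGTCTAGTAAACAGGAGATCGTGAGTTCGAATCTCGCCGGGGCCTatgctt

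GAGAGAG lay within 50 bp of both bnl summits, and so at 3 of the 4 conservative summits described here, beside 3.92% of all conservative summits. All 4 lie in or just upstream of trh and bnl. Around the own-list summits at the bnl promoter, GAGAGAG lay within 50 bp in replicate 4 and not in replicate 1. Within 100 bp the intron summit also held TGTTTAC, inside the transfer RNA gene, as 6.82% of all summits do. A count of summits near transfer RNA genes was added after this summit had been seen: 26 of the 530 intron summits, and 73 of all 5203, lay within 100 bp of one, and 73 of 290 transfer RNA genes had such a summit.

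**Figure D2:**
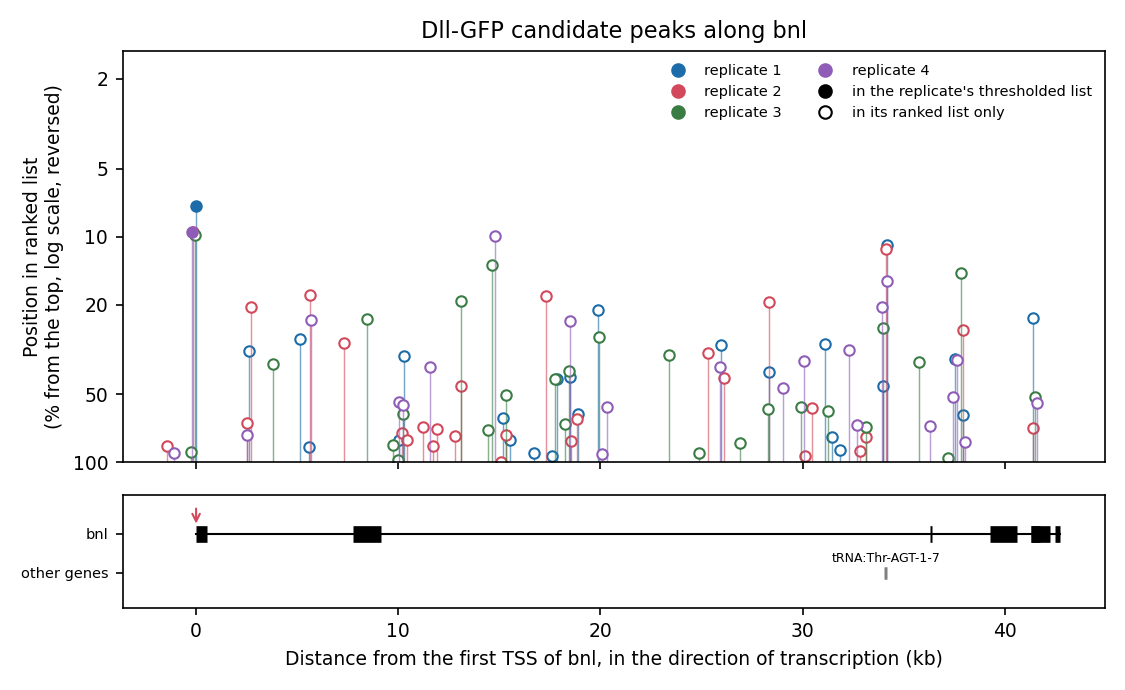
Candidate peaks along bnl, drawn as for trh, with the transfer RNA gene in grey. The promoter candidates of the 4 replicates lie at 7.34 to 9.83% and those beside the transfer RNA gene at 10.9 to 25.3%.

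In bnl, 24, 28, 27 and 23 candidates were found in replicates 1 to 4, or 5.70 ± 0.532 per 10 kb of body and upstream sequence (SD, n = 4), beside 3.04 ± 0.201 over the genome. A mean density above that of the genome was not particular to bnl. It was 7.32 at rib, 4.79 at CrebA, 4.36 at trh, 3.70 at btl and 3.58 at fkh, and 2.87 at sage. Regions of bnl with a candidate in all 4 replicates numbered 8, of which 6 were neither the promoter nor the transfer RNA region, and their mean ranks ran from 27.6 to 55.8%.

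Of the 4 summits, 1 lay in a promoter (500 bp upstream to 100 bp downstream of a protein-coding TSS) and 3 in introns, beside 75.0% and 10.2% of all conservative summits. With 4 summits the promoter share of 25% has an exact 95% binomial interval of 0.631 to 80.6%, which includes 75.0% and covers counting error only. The interval takes the summits as independent, although all of them belong to trh and bnl, so it is a description and not a test. The share also varied with the list and the definition. It was 50% of 2 summits in each of the series-level lists of 4009, 4318, 4347 and 4640 peaks. In that of 4781 it was 75% of 4 summits, 2 of them in overlapping peaks at the fkh promoter. In that of 6220 it was 60% of 10, with overlapping peaks at the rib and CrebA promoters and in the bnl intron. Widening promoters to 1000 bp up- and downstream gave 50% in the conservative list. Long genes offer more intron: trh spans 26110 bp and bnl 42745 bp, beside a median of 2164.5 bp over protein-coding genes, and the part of length in this was not tested.

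In the salivary gland set, fkh (3R:28580976-28585264, minus strand) had a promoter peak in some replicates. The own list of replicate 2 held 2 summits, 144 and 363 bp upstream of the TSS, and that of replicate 4 held 1, 200 bp upstream, at 80.6, 91.5 and 82.9%. The strongest promoter candidates of replicates 1 to 4 ranked at 25.4, 8.52, 16.5 and 7.27% (14.4 ± 8.38, SD, n = 4), with global IDR values of 0.402, 0.00496, 0.800 and 0.00642. Replicates 2 and 4 were high and replicates 1 and 3 low. The fkh promoter was absent from the conservative list, and it was present in 2 of the other 6 thresholded series-level lists, those of 4781 and 6220 peaks. No planned motif, nor TGAGTCA, was found within 100 bp of the stronger fkh summit in those lists.

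CrebA (3L:15535395-15553214, plus strand) held no conservative or own-list summit. Its strongest candidates stood at 14.7, 13.7, 6.90 and 18.6% in replicates 1 to 4 (13.5 ± 4.88, SD, n = 4), and they were not 1 site: those of replicates 2 and 4 lay at the promoter, and those of replicates 1 and 3 in introns. The candidate of replicate 3 had a global IDR of 0.0140, just outside the threshold. Sage (3R:9262654-9264142, minus strand) had 1, 2, 0 and 1 candidates in replicates 1 to 4, at 26.8, 33.4 and 92.4% where there was one. That of replicate 2 lay in the coding sequence of the neighbouring gene TrpRS.

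In the tracheal set, rib (2R:19270078-19281396, plus strand) likewise held no conservative or own-list summit. Its strongest candidates stood at 12.6, 10.9, 10.1 and 19.4% (13.2 ± 4.23, SD, n = 4). Those of replicates 1 and 3 lay upstream of the gene and those of replicates 2 and 4 in an intron. Its internal promoter, 235 bp upstream of that TSS, had candidates in all 4 replicates, at 17.2, 20.2, 11.1 and 20.9%. The receptor gene btl (3L:14075772-14083229, plus strand) had its strongest candidates at 34.2, 41.1, 50.6 and 58.0% (46.0 ± 10.5, SD, n = 4), each at a different place. No region of btl had a candidate in all 4 replicates. The strongest candidate of the receptor gene thus ranked below that of the ligand gene bnl in every replicate, but bnl had 23 to 28 candidates over 44745 bp of body and upstream sequence and btl 1 to 6 over 9458 bp, and the part of this number in the difference was not tested.

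**Figure D3:**
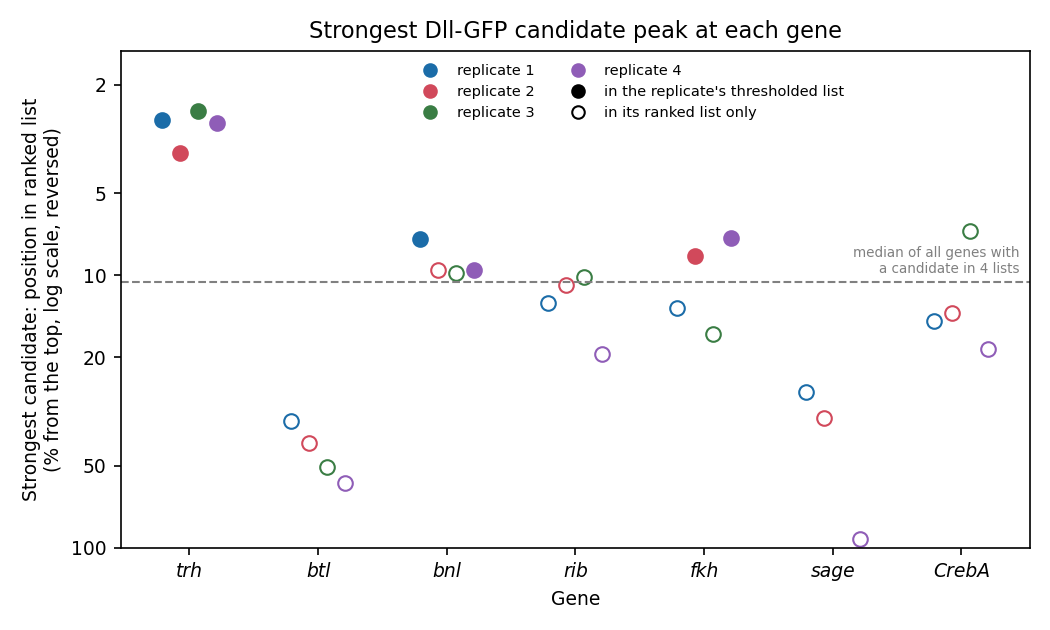
Strongest candidate at each gene (x axis) by percent from the top of the ranked list (log scale, reversed, y axis), 1 point per replicate, filled where the candidate is in the own list and open where it is in the ranked list only. The 4 points of trh lie at 2.50 to 3.55% and those of btl at 34.2 to 58.0%, and sage has no point for replicate 3; the dashed line is the median over genes, 10.6%.

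In order of mean rank, the genes were trh (2.88%), bnl (9.08%), fkh (11.4%), rib (13.2%), CrebA (13.5%), btl (46.0%) and sage (50.9%, 3 replicates). The range of trh overlapped no other. The ranges of fkh, rib and CrebA overlapped one another, that of bnl overlapped those of fkh and CrebA but not that of rib, and those of btl and sage overlapped each other. Over all genes, 71.6% had a candidate in all 4 ranked lists, with a median mean rank of 10.6%. In the longest thresholded series-level list, of 6220 peaks, 5 of the 7 genes held a summit (trh, bnl, rib, fkh and CrebA), beside 45.1% of all genes. In all, the 7 genes held 80, 85, 74 and 72 ranked candidates in replicates 1 to 4 (77.75 ± 5.91, SD, n = 4).

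Other genes of these tissues were taken as 3 lists and assigned by nearest TSS. Of 31 other tracheal genes, 17 held a conservative summit (54.8%), of 23 other salivary gland genes 8 (34.8%), and of 35 secretory pathway genes, several of them known targets of CrebA, 25 (71.4%), beside the 27.7% of all genes. The tracheal count fell to 4 of 31 when only conservative peaks seen in at least 2 own lists were kept, beside 20.5% of all genes. In the own lists of replicates 1 to 4, 5, 8, 4 and 4 tracheal, 4, 5, 5 and 5 salivary and 17, 17, 18 and 15 secretory genes held a summit, beside 21.3, 21.8, 16.1 and 17.9% of all genes. In all 4 own lists, 3, 3 and 12 did, beside 11.7%. Median gene lengths were 14083, 5422 and 2330 bp. The secretory genes stood above the background in the conservative list and in each own list, whereas the tracheal genes did so in the conservative list and in the own list of replicate 2 only. The salivary genes stood above it in the conservative list by nearest TSS. By body or 2000 bp upstream, 8 of 23 (34.8%) lay below the 39.1% of all genes. In single own lists, by nearest TSS, the salivary genes stood above the background in replicates 3 and 4 but not in replicates 1 and 2. Those with a summit in all 4 own lists at once were 3 of 23, beside 11.7%. The salivary count was 4 of 23 when only conservative peaks seen in at least 2 own lists were kept, beside 20.5%. These are descriptions, with no test.

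**Figure D4:**
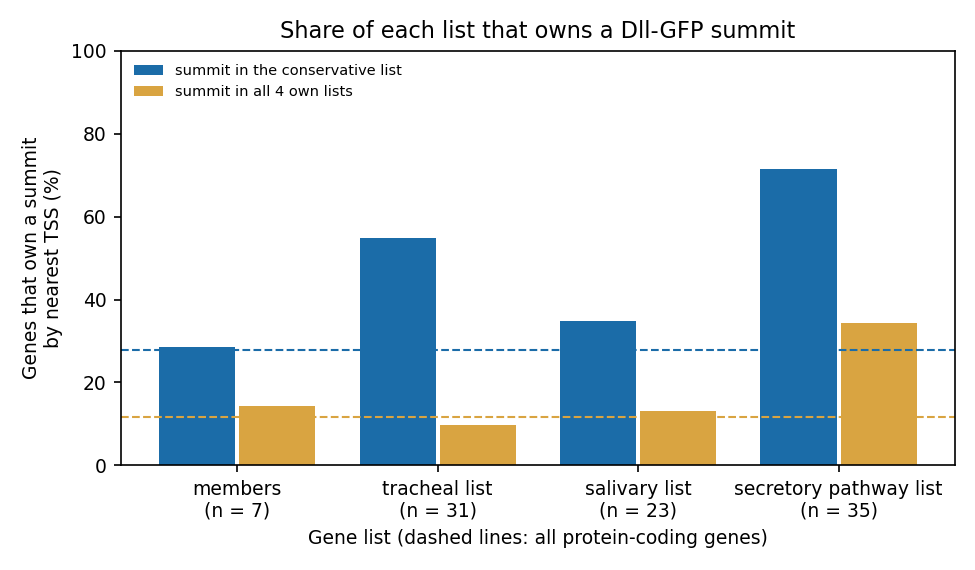
Percent of the genes in each list (x axis) that own a summit by nearest TSS (y axis), in the conservative list (blue) and in all 4 own lists (yellow), with dashed lines for all protein-coding genes at 27.7% and 11.7%. Secretory pathway genes stand well above both lines, the 7 members and the salivary genes slightly above both, and tracheal genes above the conservative line only.

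The strongest summits of each list are given next by the wider rule, nearest TSS or body or 2000 bp upstream. Under it 18 of 31 tracheal, 8 of 23 salivary and 30 of 35 secretory genes held one, beside 40.0% of all genes. Of the genes named, kkv, Srp14 and Sec61alpha owned none by nearest TSS and so are not in the counts above. Among tracheal genes, the strongest conservative summits by signal were those of lolal, a BTB-domain gene, at 7.88%, shg, which encodes E-cadherin, at 13.6%, the chitin synthase gene kkv at 18.8%, whose summit lay nearer the TSS of CG1172, and sty, an inhibitor of FGF and EGF signalling, at 39.1%. All 4 of these peaks were seen in all 4 own lists. Next came tgo, the bHLH-PAS partner of Trachealess, at 49.5%, kni at 50.05%, esg at 51.6% and bs at 63.6%, of which tgo and bs were in no own list. Among salivary gland genes, Papss, an enzyme of sulfate donor synthesis, ranked at 6.11% and exd, a homeodomain cofactor, at 36.1%, both seen in all 4 own lists. They were followed by Btk (39.3%, nearer the TSS of wol), 18w (42.3%), ps (57.1%), tsh (69.8%), fog (70.0%) and eyg (77.4%). Of these peaks, those of 18w and ps were seen in 3 own lists, those of Btk and fog in 1, and those of tsh and eyg in no own list. Among secretory genes, the strongest were Srp14 of the signal recognition particle at 1.36%, nearer the TSS of EloB, the COPI gene gammaCOP at 2.50%, the COPII gene Sec23 at 3.36%, and the translocon genes Sec61beta at 3.73% and Sec61alpha at 3.86%, the last nearer the TSS of Daxx. Sar1 followed at 5.57%, Spase22-23 at 9.63% and Srp68 at 9.73%, and all 8 were seen in all 4 own lists.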

How the data were processed

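The sources are peak lists of 4 Dll-GFP embryo samples on dm6, per the labels. The signal of each peak (column 7) and the scaled IDR score (column 5, at most 1000) are the authors' values as deposited, and the ranked lists also carry the deposited −log10 of the global IDR. Aligner, peak caller, versions and signal scaling were not given in the sources used here, nor was the comparison that set each IDR. Columns of signal with no sample name (22) were not used. No control library was analysed here.

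Summits (start plus offset, 1-based) on 7 chromosome arms were assigned to genes of Ensembl release 115 (BDGP6, the same sequence as dm6) with Python 3.11.15 and NumPy 2.4.6, and exact intervals came from SciPy 1.17.1. Classes used protein-coding genes only. Overlap meant at least 1 bp. Assignment was tested on simulated data. No test was planned: values are counts, ranks, and mean ± SD over 4 replicates. Named genes were the 7 members, the gene nearest a member's summit, up to 8 genes per list by signal, and the 3 most like trh in rank. The members and lists were chosen with earlier results of these data known. TGAGTCA, the windows around own-list summits, the count near transfer RNA genes and the list shares of single own lists and of peaks in at least 2 own lists were added after the data were seen.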

Additional observations from a re-analysis of the deposited data

Results flagged for a closer look

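Of 22 groups of 4 replicate values examined, 4 had a value far from the other 3 (the gap to the nearest value, over the whole range, was above Dixon's 95% critical value), and chance gives about 1 in 20. At trh, replicate 4 had 11 ranked candidates, where the others had 16 or 17. At bnl, the strongest candidate of replicate 1 stood at 7.34%, where the others stood at 9.56 to 9.83%; it is also the strongest promoter candidate, so the same value counts as 2 of the 4. In the salivary list, 4 genes held an own-list summit in replicate 1 and 5 in each other replicate, a difference of 1 gene.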

How the results depend on the processing

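Keeping the upper 50% of peaks by signal left 1 member gene, beside 27.5% of all genes by the members' rule, and 1 conservative summit. The promoter share was then 0%, with 1 own-list summit and 39 ranked candidates per replicate. By nearest TSS, 4 tracheal and 3 salivary genes were left, and the share of all genes by that rule is not given for this cut. Keeping peaks seen in at least 2 own lists left 2 conservative summits, 4 tracheal and 4 salivary genes. With all 4 own lists required, 1 member gene (beside 21.8% of all genes by the members' rule), 1 summit and a promoter share of 0% were left. By nearest TSS, 3 tracheal and 2 salivary genes were left, again with no share of all genes by that rule. The summit count was 2 in each of the series-level lists of 4009, 4318, 4347 and 4640 peaks, and the list of 6220 peaks gave 5 genes and 10 summits. Ranked candidates per replicate were 61.25 by nearest TSS, 63.75 by body or upstream and 59.5 with 1 summit per merged region. In other lists the promoter share was 50 to 75%. Of the planned motifs, 2 kinds were found at the summits, and 4 with 100 bp windows, TGAGTCA not counted. The cause was not tested. Leaving out 1 replicate gave 2 to 3 own-list summits, 75.3 to 79.7 ranked candidates and 1 gene seen in every list. Of the alternatives, 57 values stayed within the limits set around the main value and 25 moved. Beside the share of all genes, some changed sides. By nearest TSS or body or upstream, members went from 2 of 7 beside 40.0% to 5 of 7 beside 45.1% in the list of 6220 peaks. By nearest TSS, the conservative list put tracheal and salivary genes above the 27.7% of all genes. With at least 2 own lists required, 4 of 31 and 4 of 23 lay below 20.5%. By body or 2000 bp upstream, the 8 of 23 salivary genes in the conservative list lay below the 39.1% of all genes. Read depth and controls are unknown here, so whether an absent peak reflects depth cannot be told. No paired analysis was possible because the 4 samples form 1 group.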
